A study of Macaca mulatta with 136 samples.

Results

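Genes were compared by how differently they changed between the fovea and the periphery in the neural retina and in the RPE/choroid of the rhesus macaque eye. The comparison used 16 of the 32 libraries of the series, 4 for each tissue at each of the 2 locations, and tested the interaction of tissue and location for each gene. Of 16140 genes tested, 5899 passed at an adjusted p under 0.05 (36.5%). These 5899 genes are sorted below into those that changed in opposite directions in the tissues, those that changed in 1 tissue only, and those that changed in the same direction by different amounts.

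RNA was extracted from 2 mm punches of postmortem eyes of adult rhesus macaques at 4 locations: fovea/macula, perimacula, nasal and periphery. The retina was separated from the RPE/choroid, and the layers were sequenced apart. The 4 eyes were the right and the left eye of 2 animals, RM03 and RM04, with no treatment given in the labels. Each group of this comparison (retina fovea, retina periphery, RPE/choroid fovea, RPE/choroid periphery) therefore holds 1 library from each of the same 4 eyes, and the p-values measure the spread between these eyes and not between many animals. Values for single libraries are given in CPM, counts scaled to a common library total, always in the order right eye and left eye of RM03, then right eye and left eye of RM04.

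The fovea is the pit of the primate retina that serves acute vision, with densely packed cones and many ganglion cells per cone, whereas the peripheral retina is dominated by rods. The retinal pigment epithelium (RPE) is a monolayer that recycles visual pigment, transports ions and nutrients and takes up shed outer segments. The choroid beneath it is a vascular bed with smooth muscle, fibroblasts, melanocytes, immune cells and nerves, so a punch of RPE/choroid holds many cell types. In bulk tissue, fewer cells of a type and less RNA per cell cannot be told apart.

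The 16 libraries held 45212889 to 78574055 estimated counts each. Marker genes matched the tissue labels: the summed level of 16 RPE visual cycle and pigment genes was 12794 to 29716 CPM in RPE/choroid and 1341 to 4733 CPM in retina, and that of 11 rod genes was 7506 to 39856 CPM in retina and 434 to 1531 CPM in RPE/choroid. Markers of each tissue were thus also present in libraries of the other, at levels that differed between the locations. Marker genes of the RPE list were at a median of 0.938 to 1.60% of their RPE/choroid level in the foveal retina libraries and at 4.86 to 13.7% in the peripheral ones. The 46 genes of the rod, cone, bipolar, and amacrine and horizontal lists were at a median of 0.664 to 5.27% of their retina level in foveal RPE/choroid and at 0.961 to 4.69% in peripheral RPE/choroid. The fovea was run over 5 lanes from 2 flow cells, whereas the periphery was run over 2 lanes from a separate flow cell. A flow cell effect of equal size in both tissues cancels in the interaction, and one that differs between the tissues cannot be told apart from it.

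A change is given as the log2 difference fovea minus periphery, so that a positive value means a higher level at the fovea, and the interaction is the retina change minus the RPE/choroid change. In retina 8613 genes were called between fovea and periphery (53.4%), and in RPE/choroid 6437 (39.9%). The median change over all genes was -0.09 in retina and -0.06 in RPE/choroid, and the median absolute interaction was 0.56 with a median standard error (SE) of 0.26. Of the genes called for the interaction, the retina change was the higher one in 2795 (17.3% of the genes tested) and the lower one in 3104 (19.2%), and 3141 had an interaction over 1 in size.

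Among the 4075 genes called in both tissues, 3253 changed in the same direction and 822 in opposite directions (5.09% of the genes tested). All 822 were also called for the interaction, which calls of opposite sign in both tissues all but fix. Of the 822, 729 moved in their direction in 4 of 4 eyes in each tissue, counted in the same libraries that selected them. The 822 comprised 375 genes higher at the fovea in retina and at the periphery in RPE/choroid, and 447 with the reverse pattern. Both changes exceeded 1 on the log2 scale in 192 of the 822. A further 2799 genes called for the interaction passed in retina only, 1173 passed in RPE/choroid only, 925 changed in the same direction by different amounts, and 180 passed in neither tissue alone. Missing the threshold in 1 tissue is not absence of change, so a bounded set was kept in which the 95% interval of that tissue's change lay between -1 and 1. It also asked for a change of at least 1 in size in the called tissue and a mean of at least 1 CPM in each tissue. The size condition was met by 1506 of the retina-only and 499 of the RPE/choroid-only genes, and the bounded set held 934 and 174.

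**Figure D1:**
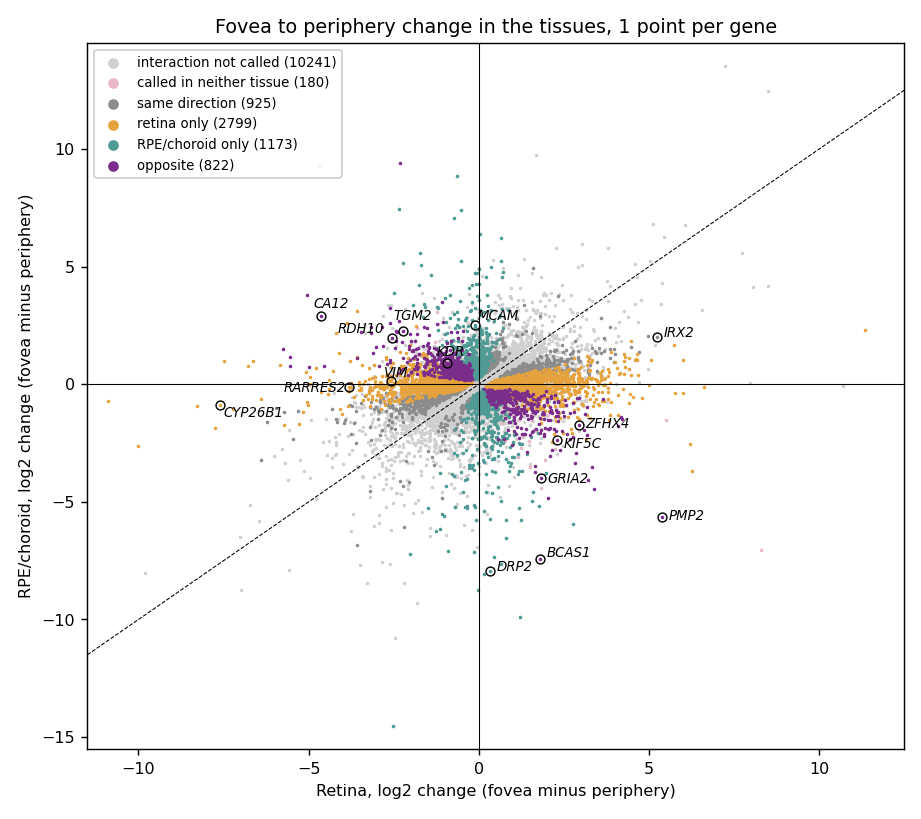
Each point is 1 of 16140 genes, with its log2 change (fovea minus periphery) in retina on the horizontal axis and in RPE/choroid on the vertical axis, coloured by class. The 822 opposite genes lie in the upper left and lower right quadrants, and the genes called in 1 tissue only spread around both axes, many of them well off an axis.

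Several neuronal genes were higher at the fovea in retina and at the periphery in RPE/choroid. KIF5C, a neuronal kinesin heavy chain that carries axonal cargo, was 561, 509, 478 and 489 CPM in the foveal retina and 109, 93.2, 127 and 107 CPM in the peripheral retina. In RPE/choroid it was 4.01, 4.9, 27.1 and 31.5 CPM at the fovea and 67.5, 20.3, 87.2 and 133 CPM at the periphery. The retina groups did not overlap, whereas in RPE/choroid the left eye of RM03 at the periphery lay below both foveal libraries of RM04, although the periphery was higher within each eye. The log2 changes were 2.28 ± 0.51 in retina and -2.36 ± 0.52 in RPE/choroid (SE), and the interaction was 4.65 ± 0.72 (adjusted p = 0.000243, edgeR quasi-likelihood test). SULT4A1, a sulfotransferase family member of neurons, was 275, 287, 289.9 and 303 CPM in foveal and 73.9, 43.5, 73.7 and 60.8 CPM in peripheral retina, against 2.03, 0.97, 4.14 and 2.24 CPM in foveal and 7.68, 5.64, 13.1 and 8.54 CPM in peripheral RPE/choroid. Neither pair of groups overlapped, and the interaction was 4.12 ± 0.40 (adjusted p = 5.85e-06). NRCAM, a neuronal adhesion molecule, had changes of 1.83 and -1.94, and GRIA2, a subunit of AMPA glutamate receptors, of 1.82 and -3.99. In peripheral RPE/choroid GRIA2 was 22.2, 64.9, 3.86 and 4.82 CPM, far higher in the eyes of RM03 than in those of RM04, against 1.2, 0.617, 2.18 and 0.979 CPM at the fovea, and the groups did not overlap.

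The level of these genes in peripheral RPE/choroid, relative to peripheral retina, was 70.7% for KIF5C, 44.8% for GRIA2, 13.9% for SULT4A1 and 11.9% for NRCAM. For comparison, the 46 retinal neuron markers (rod, cone, bipolar, and amacrine and horizontal lists) stood at a median of at most 4.69% there. The ganglion cell list is not among these markers, and its summed level was 14.3 to 24.9% of the retina level in peripheral RPE/choroid, while the summed bipolar list was at 24.4 to 30.4%. A sum can rest on a few genes. Of a mean ganglion sum of 205 CPM there, RBPMS held 81.0 CPM and THY1 60.6 CPM, at 643% and 98.5% of their retina levels. The median share of the bipolar list was 1.35 to 7.18%. The sums are therefore not a measure of carried-over RNA. SULT4A1 and NRCAM lay below these summed shares and above the median share. Of all 375 genes of this direction, 4 (1.07%) had a peripheral RPE/choroid level at or under the highest median share of the 46 markers. Markers also lie above a median, with upper quartiles of 5.78 to 9.64% over these libraries, so this count cannot separate carried-over RNA. The part of carried-over retina in the RPE/choroid changes of the 375 genes was not tested.

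Some genes of myelinating cells were among those with the largest opposite changes. PMP2, a fatty acid-binding protein of peripheral myelin, was 52.4, 37.6, 3.28 and 3.76 CPM in the foveal retina and 0.355, 0.577, 0.247 and 0.299 CPM in the peripheral retina. In RPE/choroid it was 2.91, 2.36, 1.65 and 1.45 CPM at the fovea and 212, 489, 13.7 and 43.4 CPM at the periphery. The groups did not overlap in either tissue, with log2 changes of 5.38 ± 0.76 and -5.66 ± 0.72 (SE) and an interaction of 11.04 ± 1.06 (adjusted p = 5.17e-06), but the eyes of RM03 were about an order of magnitude above those of RM04 in the foveal retina and in the peripheral RPE/choroid. BCAS1, a gene of myelin-forming glia, was 26.2, 25.2, 13.8 and 13 CPM in foveal and 6.97, 5.43, 5.17 and 3.59 CPM in peripheral retina. Its RPE/choroid level was 0.459, 0.287, 0.705 and 0.443 CPM at the fovea and 130.0, 327, 11.3 and 19.4 CPM at the periphery, again highest in RM03. AATK, a kinase of neurons and glia, had changes of 1.78 in retina and -2.07 in RPE/choroid, the latter carried by 62.2, 211, 19.6 and 22.4 CPM at the periphery against 15.7, 20.6, 16.5 and 16.7 CPM at the fovea.

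The Schwann cell and myelin list moved with these genes in RPE/choroid. Its 11 tested genes summed to 481 to 618 CPM in foveal and 1088 to 18113 CPM in peripheral RPE/choroid, with the highest value in the left eye of RM03. Of the 11, 7 were called for the interaction, against 36.5% of all genes, and 6 of them had the higher retina change (17.3% of all genes). The medians of the list were -3.54 (RPE/choroid) and -0.67 (retina). DRP2, a dystrophin-related protein of Schwann cells, changed by -7.93 ± 0.93 in RPE/choroid, and its change in retina was 0.34 ± 0.68 (interaction 8.26, adjusted p = 7.88e-05). NGFR, a neurotrophin receptor of immature Schwann cells, was the 1 list member with the lower retina change, at -2.37 in retina and 0.46 in RPE/choroid. The part of Schwann cell RNA in the other opposite genes was not tested. Without the peripheral RPE/choroid library of the left eye of RM03, 5894 genes were called for the interaction and 835 were opposite.

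VIP, a neuropeptide of amacrine cells and of the nerves of the choroid, also had opposite changes but spread widely. It was 1.93, 3.0, 24.2 and 16.5 CPM in foveal and 1.41, 0.933, 1.84 and 0.55 CPM in peripheral retina, and 3.58, 0.243, 0.066 and 0.0932 CPM in foveal and 7.44, 18.1, 19 and 1.21 CPM in peripheral RPE/choroid. The retina groups did not overlap, and the RPE/choroid groups did, since the right eye of RM03 at the fovea exceeded the left eye of RM04 at the periphery. The interaction was 6.83 ± 1.80 (adjusted p = 0.00894) and was not called in RM03 alone.

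Transcription factors that pattern the axes of the retina differed between the tissues in 10 of 20 members tested, 8 with the higher and 2 with the lower retina change, against 36.5% of all genes. ZFHX4, a zinc-finger homeobox factor, was 152, 126, 143 and 143 CPM in the foveal retina and 16.7, 15.6, 23.3 and 18.2 CPM in the peripheral retina. In RPE/choroid it was 17.3, 23, 14.1 and 14.6 CPM at the fovea and 49.2, 78.5, 53.8 and 47.5 CPM at the periphery. The 4 eyes stood close together in each of the 4 groups and no groups of a tissue overlapped, with changes of 2.93 ± 0.20 and -1.73 ± 0.19 (SE) and an interaction of 4.66 ± 0.27 (adjusted p = 2.09e-07). PAX6, the eye-field homeobox factor that ganglion and amacrine cells keep in the adult, was the other opposite member. It was 679, 576, 626 and 666 CPM in foveal and 262, 209, 298 and 203 CPM in peripheral retina, and 2.08, 2.47, 8.34 and 3.96 CPM in foveal and 18.5, 6.1, 14 and 21.3 CPM in peripheral RPE/choroid, where 1 peripheral library lay within the foveal range. FOXD1, a forkhead factor of the temporal retina, changed by 2.70 ± 0.30 in retina, and in RPE/choroid its change was -0.40 ± 0.27 and did not pass. IRX1 and IRX2, Iroquois factors, were higher at the fovea in both tissues and more so in retina, by 4.97 and 5.23 against 2.05 and 2.02. ZIC1, a zinc-finger factor, and TBX3, a T-box factor, were the 2 members with the lower retina change, at -1.93 and 0.51 in retina and 0.76 and 1.77 in RPE/choroid.

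Of 18 Eph receptors and ephrin ligands tested, which guide axons and set tissue boundaries, 14 differed between the tissues, against 36.5% of all genes. This was the largest share of the 28 lists, which were chosen with earlier results of these data known. The retina change was higher in 9 and lower in 5 (17.3% and 19.2% of all genes). EPHA2 was 1.88, 2.18, 3.47 and 4.16 CPM in foveal and 10.2, 8.69, 10.1 and 10.5 CPM in peripheral retina, and 21.2, 21.9, 32.7 and 43.9 CPM in foveal and 16.2, 14.6, 22.4 and 21 CPM in peripheral RPE/choroid. Its retina groups did not overlap and 1 peripheral RPE/choroid library lay within the foveal range, with changes of -1.83 and 0.66 and an interaction of -2.48 ± 0.23 (adjusted p = 3.73e-06). EPHA3 and EFNB1 had the same pattern, with changes of -1.16 and -0.74 in retina and 1.13 and 0.82 in RPE/choroid. EPHB1 ran the other way, at 6.5, 5.6, 5.28 and 5.52 CPM in foveal and 2.55, 2.16, 3.51 and 3.83 CPM in peripheral retina and 1.89, 3.33, 2.09 and 1.96 CPM in foveal and 8.5, 5.88, 4.91 and 8.98 CPM in peripheral RPE/choroid, with no overlap in either tissue. EFNA1 shared that direction, at 1.32 and -0.71. EPHA4, EPHA5 and EPHA7 were higher at the fovea in retina, by 2.23, 2.25 and 1.42, and EPHB3 and EPHB4 lower, by -1.52 and -1.25, while none of the 5 passed in RPE/choroid. EPHA8 and EPHB6 were called for the interaction (adjusted p = 0.0282 and 0.0458) without passing in either tissue, but their calls were lost under 6 of 20 and 9 of 21 alternatives. EPHA8 was not called by limma voom, in RM03 alone, or without the right eye of RM03, either eye of RM04 or the foveal RPE/choroid library of the right eye of RM04. EPHB6 was not called with the eye as a block, in RM04 alone, or without either eye of RM03, the left eye of RM04 or the peripheral RPE/choroid library of the left eye of RM03, among others.

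**Figure D2:**
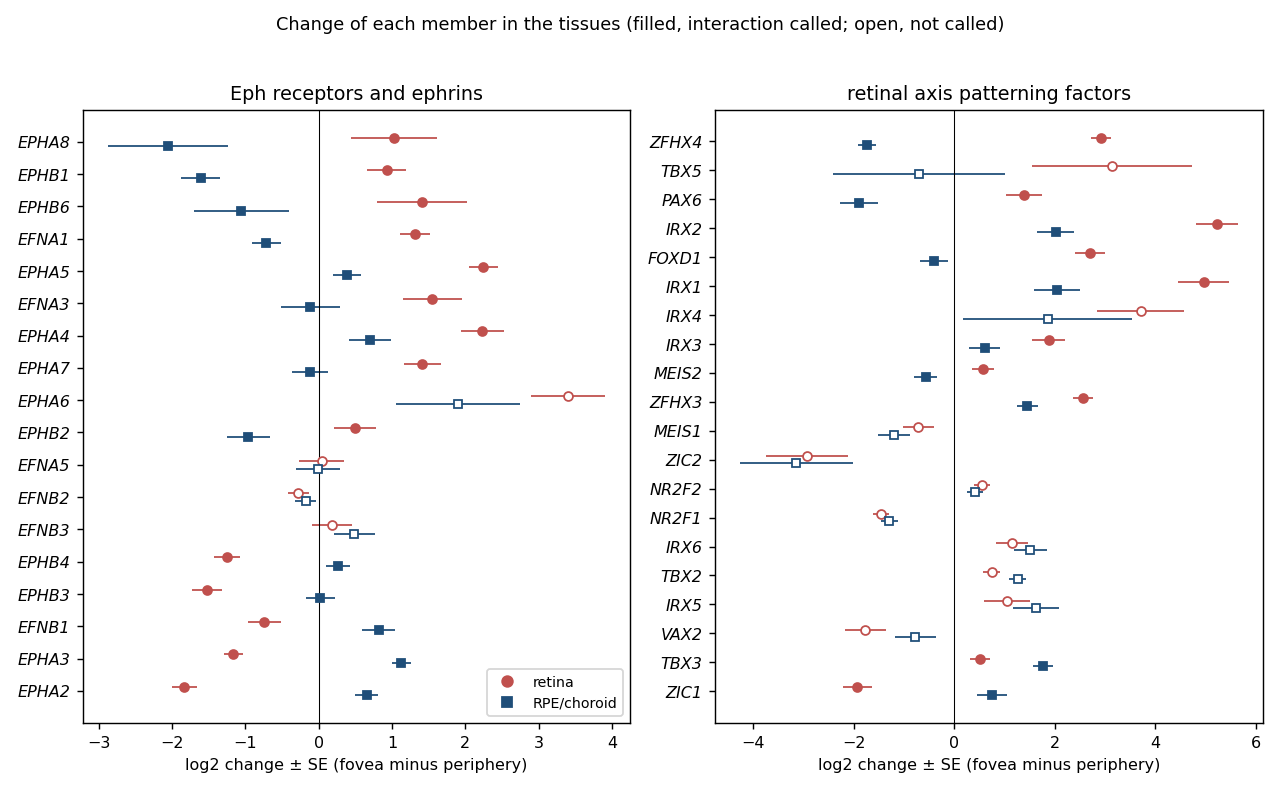
Log2 change (fovea minus periphery) ± SE of each tested Eph receptor or ephrin and each tested axis patterning factor, in retina (circles) and RPE/choroid (squares), from 4 eyes. Filled symbols mark members called for the interaction, and the opposite members, such as ZFHX4 and EPHA2, have their symbols on either side of 0.

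The 447 genes of the reverse direction were higher at the periphery in retina and at the fovea in RPE/choroid. CA12, a membrane-bound carbonic anhydrase, was 1.46, 3.16, 2.92 and 2.31 CPM in the foveal retina and 28, 45.7, 106 and 90.1 CPM in the peripheral retina. In RPE/choroid it was 132, 117, 149 and 172 CPM at the fovea and 22.9, 8.36, 21.2 and 24.3 CPM at the periphery. No groups of a tissue overlapped, and the tissue with the higher level switched between the locations. The changes were -4.65 ± 0.38 in retina and 2.91 ± 0.34 in RPE/choroid (SE), and the interaction was -7.56 ± 0.51 (adjusted p = 4.70e-07). RDH10, a retinol dehydrogenase on the path to retinal and retinoic acid, was 24.4, 24.8, 21.1 and 21 CPM in foveal and 114, 135, 178 and 125 CPM in peripheral retina, and 215, 177, 449 and 466 CPM in foveal and 103, 30.3, 66.4 and 125 CPM in peripheral RPE/choroid. Again no groups overlapped, with an interaction of -4.51 ± 0.51 (adjusted p = 1.78e-05). ENPP2, the secreted enzyme autotaxin, was 20.8, 29.5, 28.5 and 26 CPM in foveal and 141, 236, 161 and 199 CPM in peripheral retina, against 1413, 1050, 1932 and 1927 CPM in foveal and 896, 206, 235 and 710.3 CPM in peripheral RPE/choroid. The anion exchanger SLC26A7 and the proline transporter SLC6A20 had retina changes of -3.47 and -1.98 and RPE/choroid changes of 2.22 and 1.85. Both lost the call in RM03 alone.

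TGM2, a transglutaminase that crosslinks matrix proteins, was at its highest in the foveal RPE/choroid, at 1686, 1747, 701 and 927 CPM against 238, 295, 315 and 274 CPM at the periphery. In retina it was 3.96, 4.44, 5.76 and 5.5 CPM at the fovea and 7.75, 9.68, 39.5 and 41.2 CPM at the periphery, where the eyes of RM04 stood well above those of RM03. The groups did not overlap in either tissue, and the interaction was -4.47 ± 0.67 (adjusted p = 0.000169). ATOH8, a basic helix-loop-helix factor, changed by -2.44 in retina and 2.25 in RPE/choroid. SAMD11, a nuclear gene of photoreceptors, changed by -2.25 and 1.81, but its foveal RPE/choroid level was 142, 153, 10.2 and 31.5 CPM, so that the animals differed, and its interaction was not called in RM04 alone.

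RPE markers in the peripheral retina libraries moved in the direction of this class. The peripheral retina level, as a share of peripheral RPE/choroid, was 8.7% for TGM2, 25.8% for SLC6A20 and 36% for ENPP2, and it was 124% for SLC26A7, 170% for RDH10, 172% for ATOH8, 352% for CA12 and 2096% for SAMD11. The RPE marker genes stood at a median of 4.86 to 13.7% over the libraries there. TGM2 lay within this range of medians and the other 7 above it. Single markers reached higher, with upper quartiles of 17.7 to 24.9%, and the summed RPE list was at 17.4 to 20.9%. Of the 16 genes of that list, 1 had a higher mean in retina than in RPE/choroid, so the sum is not a measure of carried-over RPE. Of all 447 genes of this direction, 53 (11.9%) lay at or under the highest median share. Markers also lie above a median, so this count cannot separate carried-over RNA. The part of carried-over RPE in these retina changes was not tested.

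**Figure D3:**
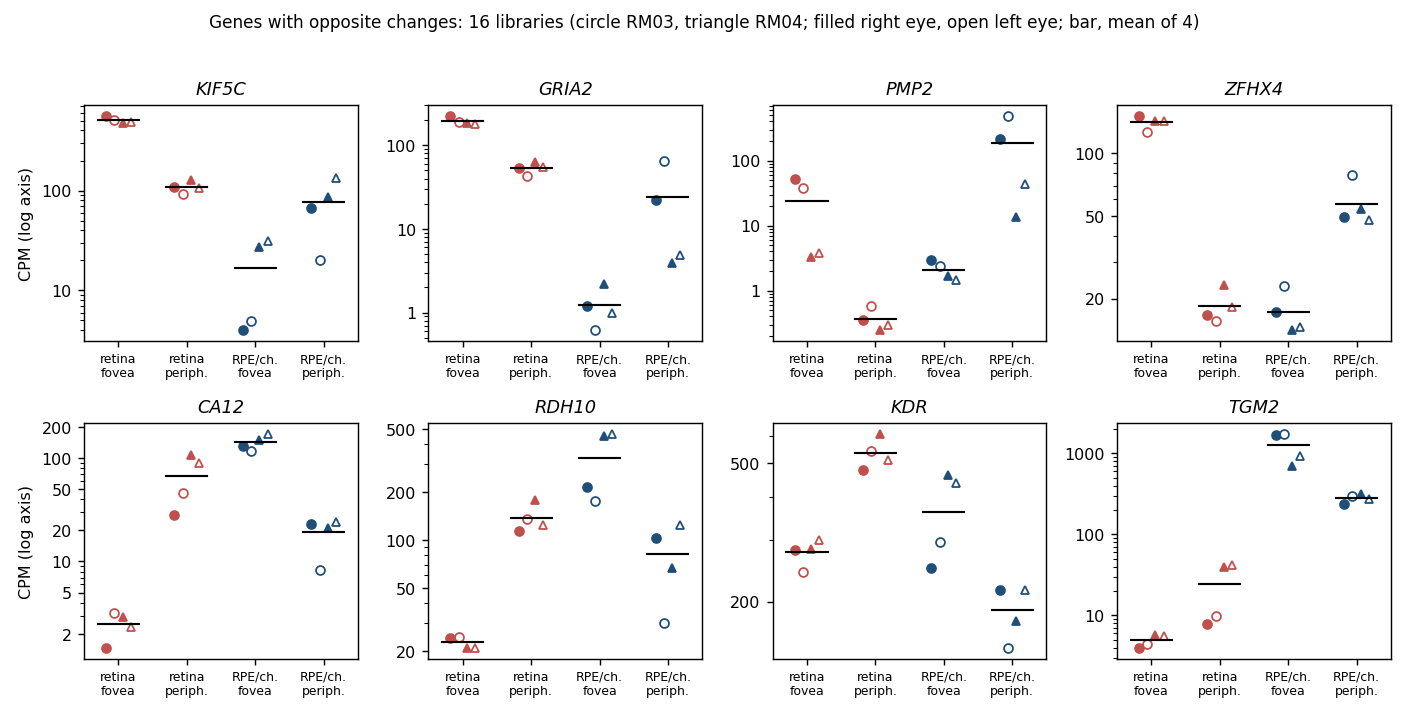
CPM on a log axis in each of the 16 libraries for 8 genes with opposite changes, by tissue and location, with circles for RM03, triangles for RM04, filled symbols for right eyes, open symbols for left eyes and a bar at the mean of 4 eyes. The upper genes fall from fovea to periphery in retina and climb in RPE/choroid, and the lower genes do the reverse.

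Retinoic acid metabolism and response genes were called in 10 of 17 members tested, against 36.5% of all genes, 7 with the lower retina change (19.2% of all genes), with a median change of -1.15 in retina and 0.04 in RPE/choroid. CYP26B1, an enzyme that degrades retinoic acid, was 0.148, 0.144, 0.172 and 0.104 CPM in foveal and 7.09, 20.5, 42.5 and 49.4 CPM in peripheral retina. Its RPE/choroid levels were 16.1, 18, 11.4 and 14.1 CPM at the fovea and 26.3, 26.6, 31.3 and 30.8 CPM at the periphery. The groups did not overlap in either tissue, and the periphery was higher within each eye. The change in retina was -7.61 ± 0.55 and that in RPE/choroid, -0.90 ± 0.38, did not pass, with an interaction of -6.71 (adjusted p = 5.83e-06). CYP26A1, which has the same enzymatic role, ran the other way in retina, at 12.7, 18.4, 18.5 and 17.6 CPM in foveal and 0.469, 0.4, 1.71 and 2.09 CPM in peripheral libraries. Its RPE/choroid levels of 44, 46.5, 2.88 and 10.9 CPM at the fovea and 14.6, 19.1, 17.6 and 12.7 CPM at the periphery overlapped, with the animals on opposite sides, and its interaction was 3.15 ± 0.97 (adjusted p = 0.0207), not called without the left eye of either animal. CRABP2, a retinoic acid-binding protein, was opposite, at 1.61, 1.53, 1.48 and 1.52 CPM in foveal and 0.736, 0.548, 0.508 and 0.455 CPM in peripheral retina and 1.92, 1.39, 5.99 and 3.57 CPM in foveal and 5.11, 10.5, 50 and 37.3 CPM in peripheral RPE/choroid. Its retina groups did not overlap, whereas 1 peripheral RPE/choroid library lay within the foveal range. The retinoic acid-forming enzyme ALDH1A2 and the receptors RARB and RARG were higher in peripheral retina, by -1.97, -1.59 and -1.64, and did not pass in RPE/choroid. STRA6, the retinol transporter of the RPE, was 792, 661, 1098 and 1196 CPM in foveal and 451, 59.4, 112 and 211 CPM in peripheral RPE/choroid, and its retina change of -0.99 ± 0.48 did not pass.

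Complement genes were called in 11 of 18 members tested, against 36.5% of all genes. Of these, 10 had the lower retina change and 5 were opposite (19.2% and 5.09% of all genes). CFD, a protease that activates the alternative pathway, was 0.826, 0.524, 0.533 and 0.725 CPM in foveal and 1.33, 1.66, 1.07 and 1.95 CPM in peripheral retina, and 127, 172, 47.6 and 93.3 CPM in foveal and 20.5, 14.7, 22.9 and 13.6 CPM in peripheral RPE/choroid. Neither pair of groups overlapped, with changes of -1.22 ± 0.35 and 2.56 ± 0.31 (SE) and an interaction of -3.77 ± 0.47 (adjusted p = 4.08e-05). SERPING1, the inhibitor of the classical pathway, and CFI, a protease that inactivates complement fragments, were opposite by smaller amounts, at -0.87 and -0.52 in retina and 0.36 and 0.40 in RPE/choroid. C7, a component of the terminal complex, was the 1 member with the higher retina change. It was 18.4, 15.1, 18.9 and 16.6 CPM in foveal and 9.92, 7.46, 9.04 and 6.57 CPM in peripheral retina, and 88.5, 81.9, 162 and 127 CPM in foveal and 229, 454, 365 and 385 CPM in peripheral RPE/choroid, with no overlap in either tissue.

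Most vessel genes tested were higher at the fovea in RPE/choroid. Of 12 smooth muscle and pericyte genes, 10 were higher in foveal RPE/choroid and none at its periphery, with a median change of 2.31, while in retina 3 were higher at each location and the median was -0.11. Of all genes, 39.9% were called between the locations in RPE/choroid and 53.4% in retina, in either direction. All 7 called for the interaction had the lower retina change, where 36.5% of all genes were called and 19.2% were called in this direction. ACTA2, smooth muscle actin, was 2584, 2971, 2438 and 2009 CPM in foveal and 276, 679.9, 497 and 160.3 CPM in peripheral RPE/choroid, and 8.64, 6.63, 7.51 and 8.42 CPM in foveal and 26.7, 14.8, 14.6 and 11 CPM in peripheral retina. It was opposite, with no overlap in either tissue and an interaction of -3.70 ± 0.49 (adjusted p = 6.47e-05), as were TAGLN (1 of 2 entries with this symbol) and PDGFRB. DES, desmin, was 53.2, 64.7, 83.8 and 72.5 CPM in foveal and 9.63, 17.5, 16.6 and 4.21 CPM in peripheral RPE/choroid, and its retina change of -0.47 ± 0.33 did not pass. The summed level of the list was 7475 to 11686 CPM in foveal and 1415 to 3173 CPM in peripheral RPE/choroid. Relative to RPE/choroid, the list stood at a median of 3.17 to 3.87% in foveal and 6.23 to 10.3% in peripheral retina, where ACTA2 was at 4.16% and TAGLN at 9.77%. The part of carried-over choroid in the retina changes of these genes was not tested.

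Of 14 choroidal endothelium genes, 10 were called for the interaction, all with the lower retina change. Among all genes, 36.5% were called and 19.2% were called in this direction. Of the 14, 10 were called higher in foveal RPE/choroid, where 39.9% of all genes were called in either direction. KDR, the main VEGF receptor of endothelium, was 281, 244, 283 and 301 CPM in foveal and 479, 543, 609 and 509.8 CPM in peripheral retina, and 250.3, 297, 463 and 439 CPM in foveal and 216, 147, 176 and 216 CPM in peripheral RPE/choroid. The groups did not overlap in either tissue, and the interaction was -1.86 ± 0.22 (adjusted p = 2.52e-05). VWF, von Willebrand factor, and PLVAP, a protein of endothelial fenestrae, were also opposite, at -2.01 and -0.91 in retina and 0.52 and 0.62 in RPE/choroid. The endothelial list stood at a median of 2.50 to 2.92% of its RPE/choroid level in foveal retina and 5.28 to 6.41% in peripheral retina, against 6.4% for VWF, 2.2% for PLVAP and 284% for KDR in peripheral retina. Of 9 VEGF ligands and receptors, 5 were called, against 36.5% of all genes. NRP1, a VEGF co-receptor, was opposite at -0.45 and 0.67, and NRP2, its paralog, was higher in foveal retina by 1.71 ± 0.17 and did not pass in RPE/choroid. PGF, a ligand of the other VEGF receptor FLT1, was 91.8, 123, 19.5 and 25.8 CPM in foveal and 22.7, 22, 19 and 16.3 CPM in peripheral RPE/choroid, carried by RM03, and its call was lost without the right eye of that animal. For VEGFA itself the change was 0.62 ± 0.31 in retina, which did not pass, and 1.33 ± 0.31 in RPE/choroid, and the interaction of -0.71 was not called (adjusted p = 0.223, 95% interval -1.64 to 0.22).

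Of the 174 genes bounded to the RPE/choroid, 112 were higher at the fovea and 62 at the periphery. MCAM, an adhesion molecule of endothelium and vascular muscle, was 662, 821, 479 and 548 CPM in foveal and 86.3, 156, 133 and 67.3 CPM in peripheral RPE/choroid. In retina it was 17.2, 18.2, 27.1 and 31.1 CPM at the fovea and 35.4, 21.1, 25.2 and 21.8 CPM at the periphery. The RPE/choroid groups stood apart and the retina groups overlapped, with changes of 2.50 ± 0.30 and -0.13 ± 0.28 (SE) and an interaction of -2.62 (adjusted p = 0.000234). THBS1, the antiangiogenic matrix protein thrombospondin-1, was 323, 264, 218 and 245 CPM in foveal and 72.5, 45, 43.6 and 58.8 CPM in peripheral RPE/choroid, and its retina change was -0.35 ± 0.22. CTGF (now CCN2), a matricellular growth factor, was 1028, 1126, 662 and 981 CPM in foveal and 213, 218, 289.8 and 212 CPM in peripheral RPE/choroid, with a retina change of -0.19 ± 0.29. The beta subunit ATP1B2 of the sodium pump was 435, 492, 716 and 708 CPM in foveal and 244, 69.9, 131 and 184 CPM in peripheral RPE/choroid, with a retina change of -0.27 ± 0.28. GRIP2, a scaffold of glutamate receptors, changed by 2.30 ± 0.42 in RPE/choroid and 0.05 ± 0.40 in retina. The interaction of CTGF was not called in RM04 alone, that of ATP1B2 in RM03 alone, and that of GRIP2 in RM03 alone or without the right eye of RM03.

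At the periphery, MAB21L1, a gene of eye development, was 21.5, 8.39, 12.9 and 19.7 CPM in RPE/choroid against 1.24, 0.794, 2.4 and 1.33 CPM at the fovea, and its retina levels of 84.9, 88.4, 84.7 and 89.7 CPM at the fovea and 133, 105, 98.8 and 87.5 CPM at the periphery overlapped. The interaction was 3.15 ± 0.43 (adjusted p = 7.87e-05). CORO1A, an actin-binding protein of leukocytes, was 23, 17.8, 37.6 and 53.7 CPM in foveal and 50.3, 70, 102 and 114 CPM in peripheral RPE/choroid, with a retina change of 0.49 ± 0.20. NTNG1, an axonal membrane protein, DIRAS2, a small GTPase of neurons, and LRP1B, a lipoprotein receptor family member, changed by -1.57, -1.62 and -1.82 in RPE/choroid. LRP1B lost its call for the interaction under 6 of 21 alternatives, among them those without the right eye of RM03 or the left eye of either animal. Relative to peripheral retina, peripheral RPE/choroid held 83.6% of the NTNG1 level, 21.9% for LRP1B, 14.7% for MAB21L1 and 5.8% for DIRAS2.

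Of 11 bipolar genes, 6 were called for the interaction, all with the higher retina change and 5 of them in RPE/choroid only, against 36.5% of all genes called. The median change of the list was -0.16 in retina and -1.99 in RPE/choroid. Of 12 amacrine and horizontal cell genes, 5 were called, 4 with the higher and 1 with the lower retina change, and 4 of the 5 in RPE/choroid only. GRM6, the glutamate receptor of ON bipolar cells, was 0.053, 0.132, 0.242 and 0.35 CPM in foveal and 6.0, 0.536, 1.01 and 1.49 CPM in peripheral RPE/choroid, and 61.8, 69, 75.3 and 66.3 CPM in foveal and 88.5, 58.5, 93 and 94.5 CPM in peripheral retina. GAD2, which makes the transmitter GABA, was 0.282, 0.176, 0.616 and 0.606 CPM in foveal and 3.67, 0.772, 1.95 and 2.81 CPM in peripheral RPE/choroid, with a retina change of 0.14 ± 0.33. These genes are also the markers of retinal cells in RPE/choroid: the bipolar list stood at a median of 0.506 to 1.45% of its retina level in foveal and 1.35 to 7.18% in peripheral RPE/choroid, and the amacrine and horizontal list at 0.226 to 1.52% and 1.30 to 4.39%. Rod genes, in contrast, were at 0.652 to 11.3% in foveal and 0.488 to 4.34% in peripheral RPE/choroid, with the highest value in the right eye of RM04. The part of carried-over retina in these changes was not tested.

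Retina-only genes were the largest class. Of the 934 bounded ones, 508 were higher at the fovea and 426 at the periphery. AHNAK2, a large scaffold protein, was 540.0, 488, 549 and 553 CPM in foveal and 52, 22.1, 45.9 and 34.8 CPM in peripheral retina. Its levels in RPE/choroid were 219, 241, 189 and 185 CPM at the fovea and 263, 255, 286 and 229.9 CPM at the periphery. The retina groups stood apart by about an order of magnitude and the RPE/choroid groups overlapped, with changes of 3.78 ± 0.22 and -0.31 ± 0.20 (SE) and an interaction of 4.09 (adjusted p = 4.77e-07). TNFRSF21, a death receptor of neurons, was 206, 184, 179.8 and 190.3 CPM in foveal and 19, 9.97, 18.1 and 12.9 CPM in peripheral retina, and its RPE/choroid change was 0.21 ± 0.16. ST14, a membrane serine protease, LGI3, a secreted neuronal protein, and ADCY3, an adenylyl cyclase, had retina changes of 3.87, 3.53 and 3.78 and RPE/choroid changes of 0.03, 0.03 and 0.34.

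Ganglion cell genes were higher in the foveal retina. Of 14 tested, 13 passed in this direction, where 53.4% of all genes were called in retina in either direction. Of the 14, 8 were called for the interaction, all with the higher retina change. Among all genes, 36.5% were called and 17.3% were called with the higher retina change. The median change of the list was 3.32 in retina and 1.16 in RPE/choroid. THY1, a surface glycoprotein of ganglion cells, was 784, 634, 621 and 666 CPM in foveal and 82.5, 36.1, 81.7 and 45.7 CPM in peripheral retina, and 72.6, 71.6, 73.8 and 57.8 CPM in foveal and 36.5, 80.8, 70.1 and 55.1 CPM in peripheral RPE/choroid, where the groups overlapped. STMN2, a microtubule regulator of axons, was 1134, 1106, 1122 and 1167 CPM in foveal and 155, 74.7, 178 and 104 CPM in peripheral retina, and its RPE/choroid change of -1.32 ± 0.67 did not pass. The cone list, in comparison, had 3 of 12 genes called, and the rod list 2 of 11, with median changes of -2.23 in retina and -1.47 in RPE/choroid for the rod genes.

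At the periphery, RARRES2, the secreted attractant chemerin, was 33.8, 49.2, 44.6 and 62 CPM in retina against 2.48, 2.98, 3.52 and 4.54 CPM at the fovea. In RPE/choroid it was 167, 194, 226 and 228 CPM at the fovea and 207, 169, 295 and 226 CPM at the periphery, with the groups overlapping. The interaction was -3.69 ± 0.22 (adjusted p = 2.09e-07). STEAP4, a metalloreductase, was 20.6, 29.3, 25.9 and 23.4 CPM in peripheral and 2.5, 2.35, 1.68 and 1.95 CPM in foveal retina, above its RPE/choroid level at the periphery, and its RPE/choroid change was -0.04 ± 0.26. PLAC9, a small secreted protein, FBLN2, the matrix protein fibulin-2, and IGDCC4, an immunoglobulin family membrane protein, had retina changes of -3.23, -3.34 and -3.14. In peripheral retina, the level relative to RPE/choroid was 9.3% for FBLN2, 21.1% for RARRES2, 69.3% for PLAC9, 93.9% for IGDCC4 and 398% for STEAP4. The range of RPE marker medians, 4.86 to 13.7%, includes the value of FBLN2. Of the 426 bounded genes of this direction, 67 (15.7%) lay at or under the highest median share. Markers also lie above a median, so this count cannot separate carried-over RNA, whose part was not tested.

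RPE genes themselves were called in 11 of 16 members, all with the lower retina change, where 36.5% of all genes were called and 19.2% in this direction. These 16 genes are the RPE markers whose share in the retina libraries was higher at the periphery (4.86 to 13.7% against 0.938 to 1.60%), and the part of carried-over RPE in their retina changes was not tested. The peripheral retina level was 9.37% of that in RPE/choroid for SLC45A2 and 14.1% for BEST1. SLC45A2, a melanosome transporter, was 0.339, 0.289, 0.619 and 0.915 CPM in foveal and 3.12, 6.25, 7.57 and 12.7 CPM in peripheral retina, and 63.8, 63.9, 101 and 103 CPM in foveal and 80.8, 45.7, 80.6 and 109 CPM in peripheral RPE/choroid. BEST1, an anion channel of the RPE, changed by -2.84 in retina, and its RPE/choroid change was 0.37 ± 0.34. ABCA4, the retinoid transporter of outer segments and so not a gene of the RPE alone, was opposite at -1.44 and 1.00. Among Mueller glia and astrocyte genes 7 of 12 were called. VIM, the intermediate filament vimentin, was 156, 151, 204 and 238 CPM in foveal and 988, 1070, 1297 and 1096 CPM in peripheral retina, and its RPE/choroid change was 0.13 ± 0.13. RLBP1, the retinaldehyde-binding protein that Mueller glia and RPE share, was 169, 197, 142 and 147 CPM in foveal and 1272, 1337, 1587 and 1399 CPM in peripheral retina, and 1556, 1235, 2994 and 3040 CPM in foveal and 2544, 384, 1672 and 3214 CPM in peripheral RPE/choroid, where the groups overlapped.

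Carbonic anhydrase and sodium pump genes were called in 10 of 17 members tested, CA12 and ATP1B2 among them, against 36.5% of all genes. Glycolysis and lactate transport genes were called in 12 of 22, with the retina change higher in 11 (17.3% of all genes). The glucose transporter SLC2A3, 1 of 3 entries with this symbol, was 91.5, 90.3, 99.4 and 95.3 CPM in foveal and 20.5, 15.6, 26.4 and 19.1 CPM in peripheral retina, and its RPE/choroid change was 0.12 ± 0.12. The lactate transporter SLC16A3 was higher in foveal retina by 2.18 and did not pass in RPE/choroid. SLC16A1, another lactate transporter, was the 1 member of this list with the lower retina change, at 251, 186, 410.3 and 393 CPM in foveal and 122, 17.2, 44.2 and 144 CPM in peripheral RPE/choroid, and did not pass in retina. Its interaction was not called without the right eye of RM04 or in RM03 alone (adjusted p = 0.220).

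Growth factor pathways held further opposite pairs. EGF was 7.01, 5.89, 10.5 and 9.85 CPM in foveal and 2.28, 1.17, 2.39 and 2.06 CPM in peripheral retina, and 0.247, 0.287, 1.08 and 0.886 CPM in foveal and 1.09, 1.32, 3.5 and 3.31 CPM in peripheral RPE/choroid. HBEGF, a ligand of the same receptor, ran the reverse way, at 3.18, 3.03, 2.77 and 2.92 CPM in foveal and 7.17, 7.52, 8.12 and 7.6 CPM in peripheral retina and 16.9, 20.2, 24.1 and 23.8 CPM in foveal and 11.6, 11.8, 14.1 and 10.7 CPM in peripheral RPE/choroid. Neither gene overlapped between the locations in either tissue, and the interactions were 3.94 ± 0.44 and -2.16 ± 0.18 (adjusted p = 1.76e-05 and 1.71e-06). In all, 8 of 13 genes of the EGF and neuregulin list were called, against 36.5% of all genes. Among them was the receptor ERBB2, higher in peripheral retina by -1.86 and at 0.06 ± 0.21 in RPE/choroid.

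BMP and TGF-beta genes were called in 17 of 25 members, against 36.5% of all genes, and 12 had the lower retina change (19.2% of all genes). The BMP targets ID1 and ID3 changed by -1.51 and -1.55 in retina, and their RPE/choroid changes of 1.29 and 1.23 did not pass, while ID4, a relative, was opposite in the reverse direction at 1.04 and -1.03. BMP3 was 2.67, 2.46, 1.79 and 2.23 CPM in foveal and 1.12, 1.23, 0.59 and 0.981 CPM in peripheral retina, and 0, 0, 0 and 0.117 CPM in foveal and 0.925, 3.64, 1.16 and 1.02 CPM in peripheral RPE/choroid, where the foveal libraries were at or near 0. Wnt genes were called in 12 of 33 (36.4%), near the share of all genes. Among them the receptor FZD7, the secreted inhibitor FRZB and the co-receptor LRP5 were opposite, at -1.62, -1.03 and -1.11 in retina and 0.76, 0.97 and 0.70 in RPE/choroid. SFRP1, another secreted inhibitor, was 5.56, 7.06, 1.63 and 2.98 CPM in foveal and 169.8, 406, 11 and 22 CPM in peripheral RPE/choroid, highest in the libraries with the highest Schwann cell genes. Collagen genes were called in 13 of 27, against 36.5% of all genes, all with the lower retina change (19.2% of all genes). They included the opposite basement membrane chains COL4A1 and COL4A6, at -0.74 and -1.35 in retina and 0.89 and 0.96 in RPE/choroid.

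**Figure D4:**
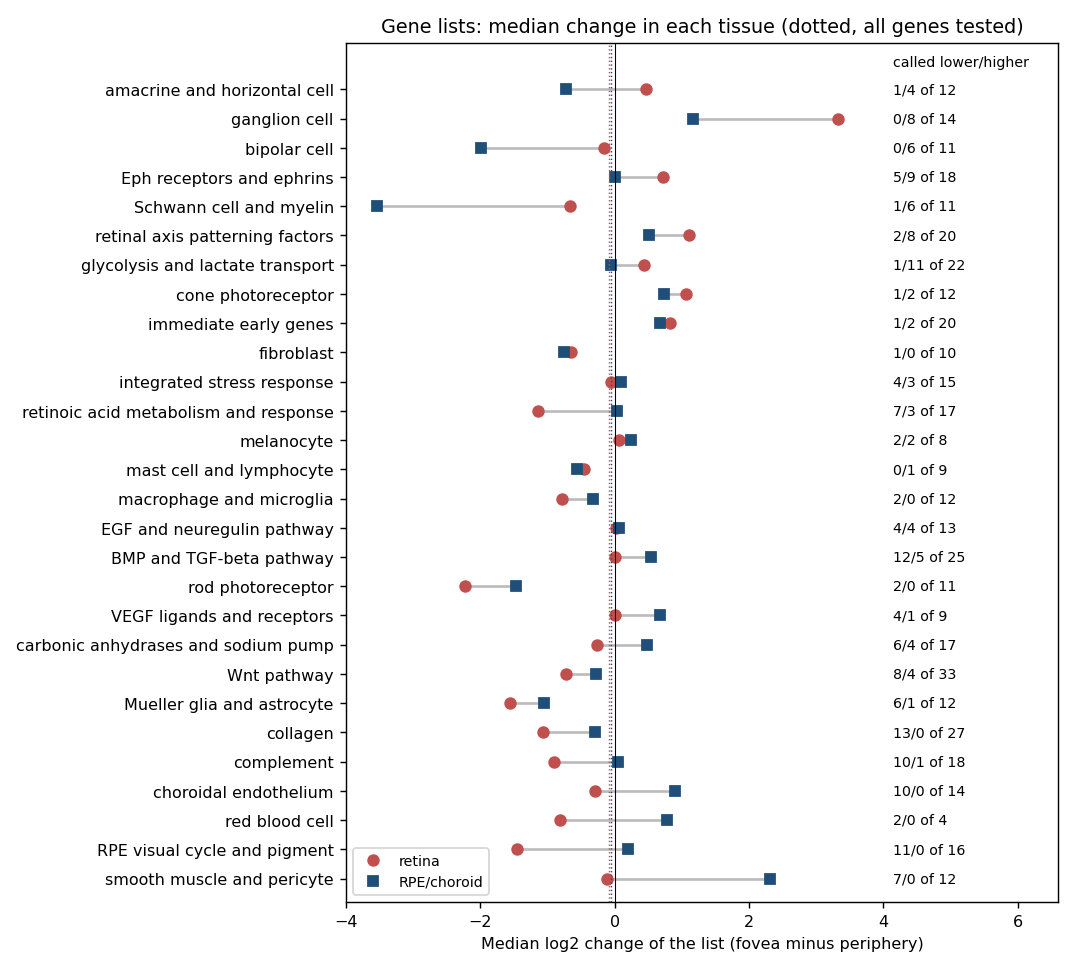
Median log2 change (fovea minus periphery) over the tested genes of each of 28 lists, in retina (circles) and RPE/choroid (squares), ordered by the median interaction, with the numbers called for the interaction with the lower and the higher retina change at the right. In the vascular and RPE lists the RPE/choroid symbol lies to the right of the retina symbol, in the ganglion cell, bipolar and Schwann cell lists it lies to the left, and the 2 dotted lines mark the medians of all genes.

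Stress, blood and immune lists gave the following counts. Immediate early genes were called in 3 of 20, with similar medians of 0.82 in retina and 0.67 in RPE/choroid, and MYC was the largest, higher at the fovea by 3.21 ± 0.20 in retina and 0.54 ± 0.19 in RPE/choroid. Integrated stress response genes were called in 7 of 15, 4 with the lower and 3 with the higher retina change. CHAC1, a glutathione-degrading enzyme of that response, was 32.1, 96.6, 88.7 and 73.9 CPM in foveal and 2.78, 0.992, 2.09 and 6.1 CPM in peripheral retina, and its RPE/choroid change of 1.06 ± 0.58 did not pass. Macrophage and microglia genes were called in 2 of 12, fibroblast genes in 1 of 10, mast cell and lymphocyte genes in 1 of 9, melanocyte genes in 4 of 8 and red blood cell genes in 2 of 4, where 36.5% of all genes were called. The fibroblast gene was FBLN1, the matrix protein fibulin-1, at 0.275, 0.199, 0.223 and 0.311 CPM in foveal and 10.6, 28.8, 8.33 and 9.19 CPM in peripheral retina and with changes of -5.72 in retina and -1.16 in RPE/choroid.

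Of the 925 genes that changed in the same direction by different amounts, the change was larger in retina for 751 and larger in RPE/choroid for 174. RBPMS, an RNA-binding protein of ganglion cells, was 316, 304, 338 and 366 CPM in foveal and 17.1, 7.4, 15.6 and 10.2 CPM in peripheral retina, and 207, 269, 186 and 179.9 CPM in foveal and 81.3, 93.2, 86.2 and 63.2 CPM in peripheral RPE/choroid. The smooth muscle genes MYH11 and LMOD1 were higher at the fovea in both tissues and more so in RPE/choroid, by 3.38 and 2.66 against 1.33 and 0.71 in retina. DAPL1, a death-associated protein-like gene, and HKDC1, a hexokinase family member, were higher at the periphery in both tissues and more so in RPE/choroid, by -6.81 and -3.45 against -3.57 and -1.32. The receptor GPR37L1 changed by -6.41 in retina and -3.21 in RPE/choroid, and its interaction (adjusted p = 0.0495) was called in 9 of 20 settings. The call of MYH11 was lost in either animal alone and without the right eye of either animal.

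A shared change was bounded for 1766 genes, called in both tissues in the same direction with the 95% interval of the interaction between -1 and 1. Of these, 754 were higher at the fovea and 1012 at the periphery. NMNAT2, an enzyme that maintains axons, changed by 2.97 ± 0.16 in retina and 2.45 ± 0.17 in RPE/choroid, and TPM1, a tropomyosin, by 2.05 and 1.90. Towards the periphery, the cadherin DCHS2 changed by -2.07 and -2.16 and MINOS1, a mitochondrial inner membrane protein, by -2.04 and -1.81. NR2F1, an orphan nuclear receptor that patterns the retina, was 7.6, 9.73, 9.83 and 10 CPM in foveal and 24.2, 19.8, 25.9 and 32.2 CPM in peripheral retina, and 24.7, 33.3, 25.5 and 24.8 CPM in foveal and 67.4, 80.6, 61.3 and 55.5 CPM in peripheral RPE/choroid. Its interaction was -0.17 (adjusted p = 0.615, 95% interval -0.66 to 0.33). Across the 9967 genes with a mean of at least 5 CPM in each tissue, the changes in the tissues had a Pearson r of 0.353 and a Spearman rho of 0.413, a description across genes that share libraries and eyes and are not independent replicates.

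The perimacula and the nasal location were sequenced on the same flow cells as the fovea, and the same interaction was computed against them from all 32 libraries. It was called for 3853 of 16382 genes against the nasal location (23.5%) and for 2494 against the perimacula (15.2%). Both comparisons share the fovea libraries with the one above. For ZFHX4 the interaction was 2.35 against the nasal location and 2.27 against the perimacula (adjusted p = 1.20e-05 and 5.14e-05). For CA12 it was -4.63 and -3.18 (adjusted p = 5.03e-07 and 0.000101), and for RDH10 -3.09 and -2.40 (adjusted p = 2.82e-05 and 0.000916). KDR, HBEGF, EPHA2 and CYP26B1 were likewise called against both locations. KIF5C, TGM2, EGF and MAB21L1 were called against the nasal location, at 2.69, -2.13, 2.04 and 2.70, and not against the perimacula. PMP2 was called against both, at 5.65 and 11.56, but BCAS1, GRIA2, AATK and DRP2 were called against the perimacula and not against the nasal location. For ZFHX4, CA12, RDH10, KDR and PMP2 the retina change was called against both locations. The RPE/choroid change was called against the perimacula for ZFHX4, KDR and PMP2 (-1.07, 0.54 and -5.97) and the nasal location for CA12 (1.55). It was not called against the nasal location for ZFHX4, KDR and PMP2 (-0.72, 0.10 and -0.26), the perimacula for CA12 (1.01), or either for RDH10 (0.36 and 0.82). VIP, PAX6, EPHB1, THBS1 and CFD were called against neither, at -0.56, 1.15, 0.47, -0.56 and -1.20 against the nasal location and -0.27, -1.11, 0.74, -0.87 and -1.01 against the perimacula. The value of PAX6 thus had the reverse sign against the perimacula, where its RPE/choroid change was 1.70 (adjusted p = 0.0407), higher at the fovea. For these genes no interaction was detected between locations that share flow cells. The periphery differed from the nasal location and the perimacula in both position and flow cell, and these cannot be told apart. The SE of the VIP interaction was 1.94 against the nasal location and 2.01 against the perimacula.

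**Figure D5:**
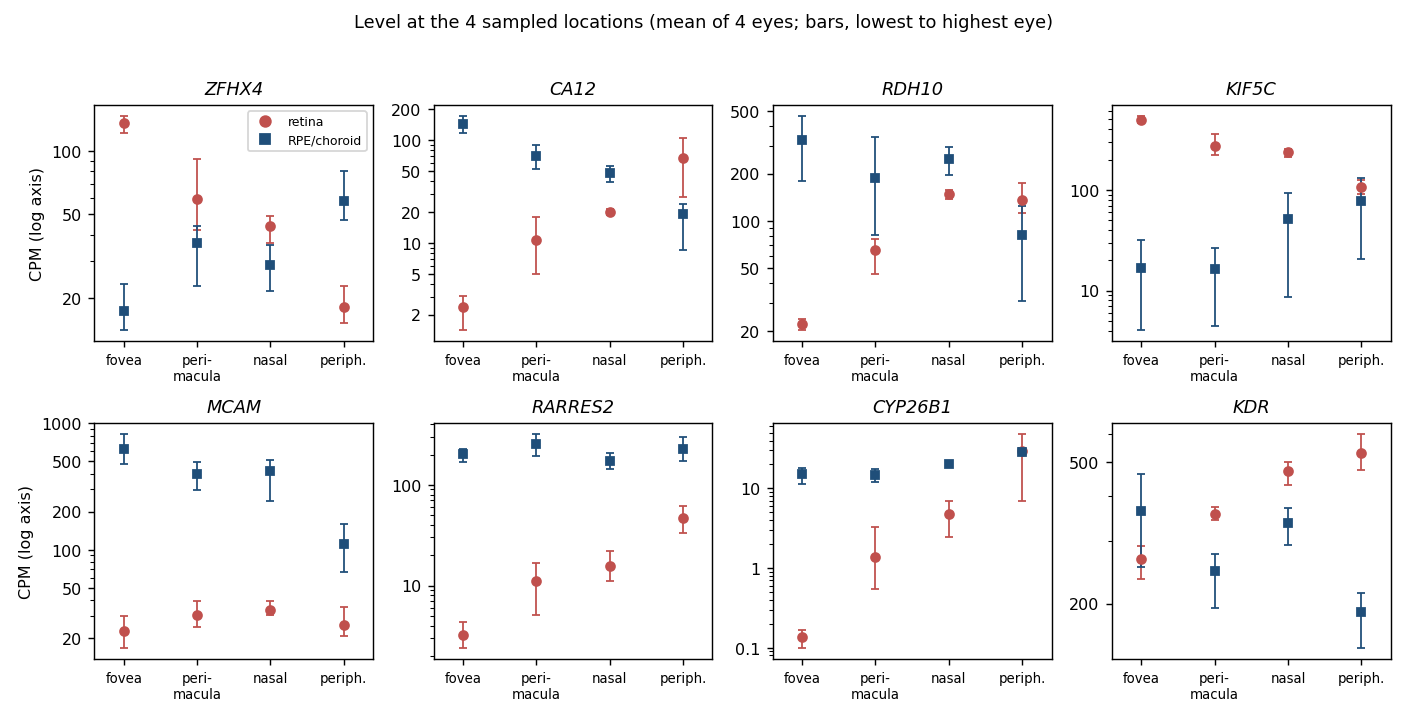
Mean CPM of 4 eyes on a log axis at the fovea, perimacula, nasal location and periphery in retina (circles) and RPE/choroid (squares), with bars from the lowest to the highest eye, for 8 genes. ZFHX4 and CA12 show the tissues crossing between fovea and periphery, with intermediate levels at the perimacula and nasal location, while MCAM drops mainly in peripheral RPE/choroid and RARRES2 climbs in retina.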

How the data were processed

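RNA sequencing of 136 lanes, 32 libraries, was deposited as gene tables. The authors assigned reads to transcripts of Mmul_8.0.1 (Salmon 0.13 per the submitters' processing notes) and deposited estimated counts per gene (expected counts from length-scaled TPM, not divided by the lane total). Lane counts were summed per library and rounded. The 16 fovea and periphery libraries, 4 per group, were fitted with edgeR 4.0.16 (quasi-likelihood test, TMM, filterByExpr at a minimum count of 10; R 4.3.3) with tissue, location, their interaction and the animal, and p-values were adjusted by Benjamini-Hochberg over all 16140 genes at 0.05. CPM uses the TMM library sizes, and eyes were compared on log2 CPM with a prior count of 2. Other steps used Python 3.11.15 with pandas 2.3.3 and scipy 1.17.1. Code was tested on simulated data.

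All 4 libraries of an eye come from 1 eye. Deviations from the group means correlated across tissues by a mean of 0.245 within an eye, 0.229 between fellow eyes and -0.237 between animals, and by 0.0279 within an eye after the animal mean was removed.

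The comparison, gene lists and alternatives were chosen with earlier results of these data known. Named genes were chosen among those called for the interaction with at least 5 CPM in each tissue and the interaction in the same direction in 4 of 4 eyes: the 8 in each direction with the largest smaller change among opposite genes, 5 in each direction of the bounded sets and 2 in each subclass of the same-direction genes. To these were added, without the requirement of a call, 2 shared genes in each direction and ZFHX4, NR2F1, IRX2 and VEGFA, and, whatever their level, up to 4 called members of each of 28 lists. Other list members were named after their values were seen. Of the deposited identifiers 14579 matched a current symbol in the reference table and 844 of these symbols differed. Some genes are not reported here. Genes that share reads with a near-identical copy are uncertain. No 2 libraries held identical values. Alternatives were DESeq2 1.42.0, limma 3.58.1 (voom with quality weights), RLE, TMM within each tissue, other count filters, an eye block, no covariate, animal by tissue, more libraries, fewer lanes, equal depth, stricter thresholds and leaving out eyes. Those added after the data were seen are each animal alone, 2 single libraries left out, and at least 5 CPM in each tissue.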

Additional observations from a re-analysis of the deposited data

Results flagged for a closer look

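The change between fovea and periphery differed between the tissues for 5899 genes by the interaction test, 822 of them in opposite directions. Of the 822, 729 moved one way in 4 of 4 eyes of 1 tissue and the other way in 4 of 4 eyes of the other. The eyes were counted in the same libraries that selected the genes.

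Among 260 groups of 4 libraries examined for library totals, summed marker lists and named genes, 10 held a library far from the other 3, where chance gives about 13 (1 in 20). All 10 were groups of named genes, and no library total or marker sum was among them. Of genes with opposite changes, VIP was 3.58 CPM in the foveal RPE/choroid of the right eye of RM03, against 0.066 to 0.243 CPM in the others, and NRCAM was 275 CPM in the foveal retina of the left eye of RM03, against 320 to 325 CPM. In the peripheral RPE/choroid of the right eye of RM04, CTGF was 290 CPM against 212 to 218 CPM. In the peripheral retina of the left eye of RM03, FBLN1 was 28.8 CPM against 8.33 to 10.6 CPM and MYH11 was 2.80 CPM against 5.71 to 5.91 CPM. In the foveal retina of the right eye of RM03, GPR37L1 was 0.0847 CPM against 0.144 to 0.155 CPM, NR2F1 was 7.6 CPM against 9.73 to 10.0 CPM and VEGFA was 262 CPM against 186 to 196 CPM. In foveal RPE/choroid, DAPL1 was 0.303 CPM in the left eye of RM04 against 0.0440 to 0.0882 CPM, and NR2F1 was 33.3 CPM in the left eye of RM03 against 24.7 to 25.5 CPM.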

How the results depend on the processing

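With the eye as replicate block, a paired fit, 5401 genes were called for the interaction and 708 were opposite, and it changed the call of 5 of 211 named values. Over the fits with all 4 eyes the interaction count ran from 4965 without covariate to 7130 with all 32 libraries, with 6536 by DESeq2 and 5828 by limma voom. Leaving out 1 eye gave 4023 to 4870 genes for the interaction, 6977 to 7864 in retina, 4369 to 5607 in RPE/choroid, 425 to 626 opposite, 2249 to 2459 retina only, 780 to 943 RPE/choroid only, 385 to 705 in the same direction, and 857 to 939 and 130 to 168 in the bounded sets. Fewer samples enter these fits. The opposite count fell by more than 1.5 times without the right eye of RM03 (514), the right eye of RM04 (483) or its left eye (425), and so did the same-direction count (472, 468 and 385), while the RPE/choroid-only count did so without the left eye of RM04 (780). Leaving out single RPE/choroid libraries that stood apart gave 730 to 835 opposite, 1032 to 1167 RPE/choroid-only and 740 to 912 same-direction genes. In RM03 alone 2868 genes were called for the interaction and 3270 in RPE/choroid, with 329 opposite, 1702 retina only, 539 RPE/choroid only and 184 in the same direction. In RM04 alone the same-direction count was 612. At an adjusted p under 0.01 the counts were 344 opposite, 665 RPE/choroid only and 378 in the same direction. Among genes with at least 5 CPM in each tissue 770 were RPE/choroid only, 115 of them bounded, and a bound of 0.58 in place of 1 left 459 retina-only and 68 RPE/choroid-only genes. Over all alternatives 4198 of 4409 named values kept their direction and call, 211 kept the direction and lost the call, and none reversed. Only values called in the main fit were followed, for genes chosen from the same libraries. Whether a change that did not pass in 1 tissue would pass under an alternative was not examined for single genes. Among lost calls not given above, the interactions of STRA6, RLBP1, BEST1, GRM6, DAPL1 and CHAC1 were not called in RM03 alone. That of STMN2 was not called in RM04 alone, that of ID1 without the left eye of RM03, and that of CHAC1 also by limma voom. Named genes under 10 counts in some library could not be fitted under the filter that asks for 10 counts in every library (22 values). With 2 animals, differences between animals beyond these cannot be estimated.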
